A study of Sus scrofa with 12 samples.

Results

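Livers of 3 pigs labelled with a high stress response and low aggressiveness were compared with livers of 3 pigs labelled with a low stress response and high aggressiveness. These 6 arrays are all the arrays of both groups, taken by their labels out of 12 in the series. The remaining 6 arrays, 3 from pigs low for both traits and 3 from pigs high for both, enter the fit as a shared estimate of the spread. All 12 animals were German Landrace, the liver samples came from adults, and each group held 1 female and 2 males. Groups are written as stress response then aggressiveness, so that high-low 3 is the third animal with a high stress response and low aggressiveness. Replicate numbers follow accession order and pair nothing. The labels do not say how either trait was scored, and they name no treatment, stressor, age in days or feeding state. Because stress response and aggressiveness both differ between the groups, and in opposite directions, a difference between them cannot be assigned to either trait.

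Total RNA of 1 liver sample per animal was hybridized to the Affymetrix porcine array, on which each probe set reports a transcript as a signal on a linear intensity scale. Differences are log2 fold changes of signal + 16, high-low minus low-high, with the standard error (SE) of a limma fit that has a mean per group and a term for sex, written as value ± SE. The threshold was 0.05 for p adjusted by Benjamini-Hochberg over the 15999 probe sets tested. With 3 animals a group, p-values measure only the spread between these animals. In whole liver, fewer cells of a type and less RNA per cell cannot be told apart.

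Cortisol and catecholamines are the main hormones by which a stressor reaches the liver. The cortisol that the adrenal cortex releases circulates bound to its carrier SERPINA6, is regenerated or inactivated in tissue by the 11-beta-hydroxysteroid dehydrogenases, and acts through the glucocorticoid receptor NR3C1, whose targets include FKBP5 and genes of gluconeogenesis and amino acid breakdown. Catecholamines act through adrenergic receptors within minutes and switch on immediate early genes such as EGR1 and FOS. Hepatocytes also secrete most plasma proteins, so the endoplasmic reticulum and its unfolded protein response, in which chaperones such as HSPA5 are induced, follow the load of secretion, including the acute phase proteins that cytokines induce. They make cholesterol and fatty acids under the control of SREBP factors and clear drugs and steroids with cytochrome P450 enzymes.

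Array quality was alike in most measures. The 3′ to 5′ ratios of control transcripts are given as log2 values, so a positive value means more 3′ than 5′ signal. The log2 ratio of EF1A was 0.723 ± 0.0334 (SD, n = 3) in the high-low group and 0.861 ± 0.120 (SD, n = 3) in the low-high group. The highest high-low ratio, 0.748, lay below the lowest low-high ratio, 0.757, and an exact two-sided permutation test gave p = 0.1, the smallest value that 3 animals against 3 allow (0.5 after adjustment over 5 measures). The same log2 ratio for GAPDH was 0.763 and 0.779, and for actin 4.96 and 5.15, with overlapping animals. Pairs of arrays correlated at 0.955 to 0.960 within the high-low group, 0.954 to 0.963 within the low-high group and 0.95 to 0.966 between the groups. Of the 6 arrays, low-high 3 and high-low 3 had the lowest median correlation with the other arrays, 0.955 and 0.956. Many values that either moved by over 1.5 times are given below without it, but not all. A value printed without such a figure is therefore not shown to be stable.

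No probe set passed: 0 of 15999 (0%) had an adjusted p under 0.05, and the smallest adjusted p was 0.524. An unadjusted p under 0.05 was reached by 688 probe sets (4.30%) and one under 0.01 by 123, of which 65 were higher (0.406%) and 58 lower (0.363%) in the high-low group. Those shares lie below what the thresholds themselves would let through if no probe set differed. Of the 123, 52.8% were higher. Other fits put a partly different set under 0.01, of which 37.0% were higher with arrays centred on their medians, 29.9% without high-low 3 and 68.9% without low-high 3. With the EF1A ratio as a covariate 76.1% of 92 were higher, and 12 of those 92 were among the 123, so neither the balance of directions nor the choice of probe sets is stable. The median log2 fold change of all 5810 genes was 0.018, the median size of a difference over probe sets 0.18 and its median SE 0.25. The study therefore measured differences mostly smaller than their own error. Nothing below is called changed. Genes are described by their values in each animal, with an unadjusted p or the separation of the groups as a description.

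**Figure D1:**
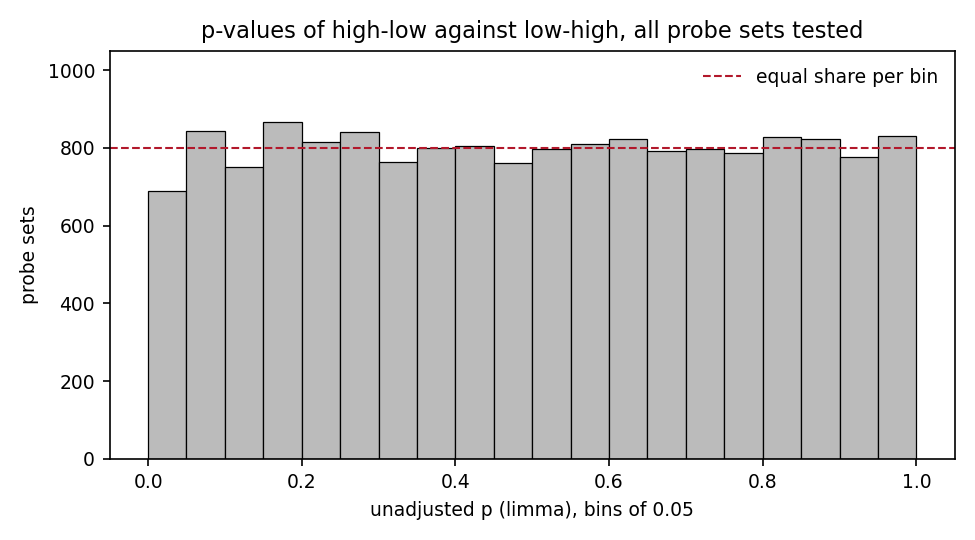
Number of probe sets (vertical axis) in each bin of unadjusted p (horizontal axis, bins of 0.05) for high-low against low-high, with the equal share per bin as a dashed line. The first bin holds 688 probe sets and lies below the line.

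The probe set with the smallest p reports LITAF, a lysosomal membrane protein. Its signals were dim, 16.4, 8.05 and 18.6 in the high-low pigs against 45.0, 75.2 and 71.3 in the low-high pigs (log2 fold change -1.39 ± 0.20, limma adjusted p = 0.524). The bright LITAF probe set, which represents the gene here, read 8923, 8829.5 and 13454 in the high-low pigs and 9037, 8010.0 and 6870.0 in the low-high pigs, a difference of 0.36 ± 0.26 in the opposite direction with overlapping animals (0.16 without high-low 3). LITAF was named after its values were seen.

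Among single genes, 43 had an unadjusted p under 0.01, and the 15 with the smallest p in each direction are described in full. All 30 had an adjusted p of 0.997 by limma. The groups did not overlap in 29 of the 30, DCHS1 being the exception. The 30 were chosen by p in this same comparison, so such separation is largely built into the choice. Separation is also common in 3 against 3: over all genes 353 (6.08%) had every high-low pig above every low-high pig, and 229 (3.94%) the reverse. In 7 of the 30 the mean signal was under 100 in both groups. Signals are given in the order of animals 1, 2 and 3.

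CRP, the acute phase protein that hepatocytes make under interleukin 6, had the largest difference of any gene that was higher in the high-low pigs. Its signals were 22490.2, 15868 and 20564 in the high-low pigs and 5638, 5334 and 5874 in the low-high pigs. Every high-low pig stood far above every low-high pig, and the low-high pigs lay close together, with means of 19640.5 ± 3407 and 5615 ± 271 (SD, n = 3). The log2 fold change was 1.79 ± 0.39. It stayed between 1.67 and 1.88 when any 1 animal was left out, and was 1.38 with the EF1A ratio as a covariate. The remaining pigs spread more widely: those low for both traits read 11006, 4623 and 17292, and those high for both 16661, 23403 and 32535. The low-low pigs thus overlap both groups, and the high-high pigs overlap the high-low pigs.

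ABCD4, a transporter that moves cobalamin out of lysosomes, read 845, 627 and 983 in the high-low pigs and 399, 300.3 and 288 in the low-high pigs (log2 fold change 1.27 ± 0.30). The groups were well apart on that probe set, yet 2 further ABCD4 probe sets differed by only 0.18 and 0.059 with overlapping animals, so the gene as a whole is not settled. CDA, the cytidine deaminase of pyrimidine salvage, read 146, 171 and 144 in the high-low pigs and 95.7, 75.1 and 70.0 in the low-high pigs (0.83 ± 0.20). The 3 high-low pigs lay above all other 9 pigs for CDA, whose highest value elsewhere was 111. RAD54L, a helicase of recombination repair, was dim at 75.5, 90.7 and 127 in the high-low pigs and 17.5, 49.7 and 14.4 in the low-high pigs (1.46 ± 0.39). Its low-high signals averaged below the smallest mean over 12 arrays that was tested, 40.58, and the difference ran from 1.99 with an added constant of 1 to 0.84 with 64.

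NOB1, the nuclease that completes small subunit RNA, read 251, 224 and 362 in the high-low pigs and 169, 147 and 104 in the low-high pigs (0.91 ± 0.24). Its other 2 probe sets differed by 0.13 and 0.10, with animals of both groups mixed. NAT10, which acetylates ribosomal RNA, read 265, 179.9 and 225 in the high-low pigs and 90.0, 145 and 158 in the low-high pigs (0.72 ± 0.20). GRWD1, a chaperone of ribosomal proteins, read 471, 432 and 471 in the high-low pigs and 340.1, 307 and 270.4 in the low-high pigs (0.56 ± 0.17), a small but even separation in which the high-low pigs hardly varied. No list of ribosome assembly was fixed. Of the cytosolic ribosomal proteins, 21 of 50 were higher, with a median of -0.013 and a range from -0.14 to 0.17.

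MANF, a secreted factor induced by stress of the endoplasmic reticulum, read 14442, 8939.9 and 10185 in the high-low pigs and 6729, 7304 and 6308 in the low-high pigs (0.69 ± 0.20). LRRC59, a ribosome-binding protein of the endoplasmic reticulum membrane, read 3905, 3277 and 3310.2 in the high-low pigs and 2248, 2231 and 1896 in the low-high pigs (0.71 ± 0.22), and NANS, the sialic acid synthase that feeds glycosylation, 3696, 2473 and 2585 in the high-low pigs and 1631, 1996 and 1813 in the low-high pigs (0.66 ± 0.20). All 3 are bright transcripts, and every high-low pig exceeded every low-high pig in each. Of the 6 pigs low-high 3 was the lowest for MANF and LRRC59, and without it the MANF difference was 0.47, against 0.81 without low-high 2.

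Of the other 5 higher genes, KCTD11 and CDHR4 were the dimmest. KCTD11, an adaptor of a ubiquitin ligase, read 66.9, 113 and 69.5 in the high-low pigs and 22.4, 20.1 and 21.5 in the low-high pigs (1.38 ± 0.40), and CDHR4, a cadherin-related protein, 58.6, 108 and 93.0 in the high-low pigs and 28.1, 25.0 and 51.7 in the low-high pigs (1.01 ± 0.28). RFLNA, which binds filamin, read 193, 253 and 185 in the high-low pigs and 20.1, 54.1 and 152 in the low-high pigs (1.58 ± 0.48). Its low-high pigs spread widely, and the difference was 2.29 without low-high 3 and 1.04 without low-high 1. THAP1, a zinc finger transcription factor, read 144, 171 and 140.4 in the high-low pigs and 125, 85.8 and 63.6 in the low-high pigs (0.68 ± 0.20), and GTF2H3, a subunit of the repair and transcription factor TFIIH, 364, 358 and 415 in the high-low pigs and 181, 235 and 281 in the low-high pigs (0.69 ± 0.21). In each of these 5 the groups did not touch, though for THAP1, CDHR4 and RFLNA the nearest animals were close. Further GTF2H3 probe sets gave 0.31 and 0.58 with overlapping animals.

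**Figure D2:**
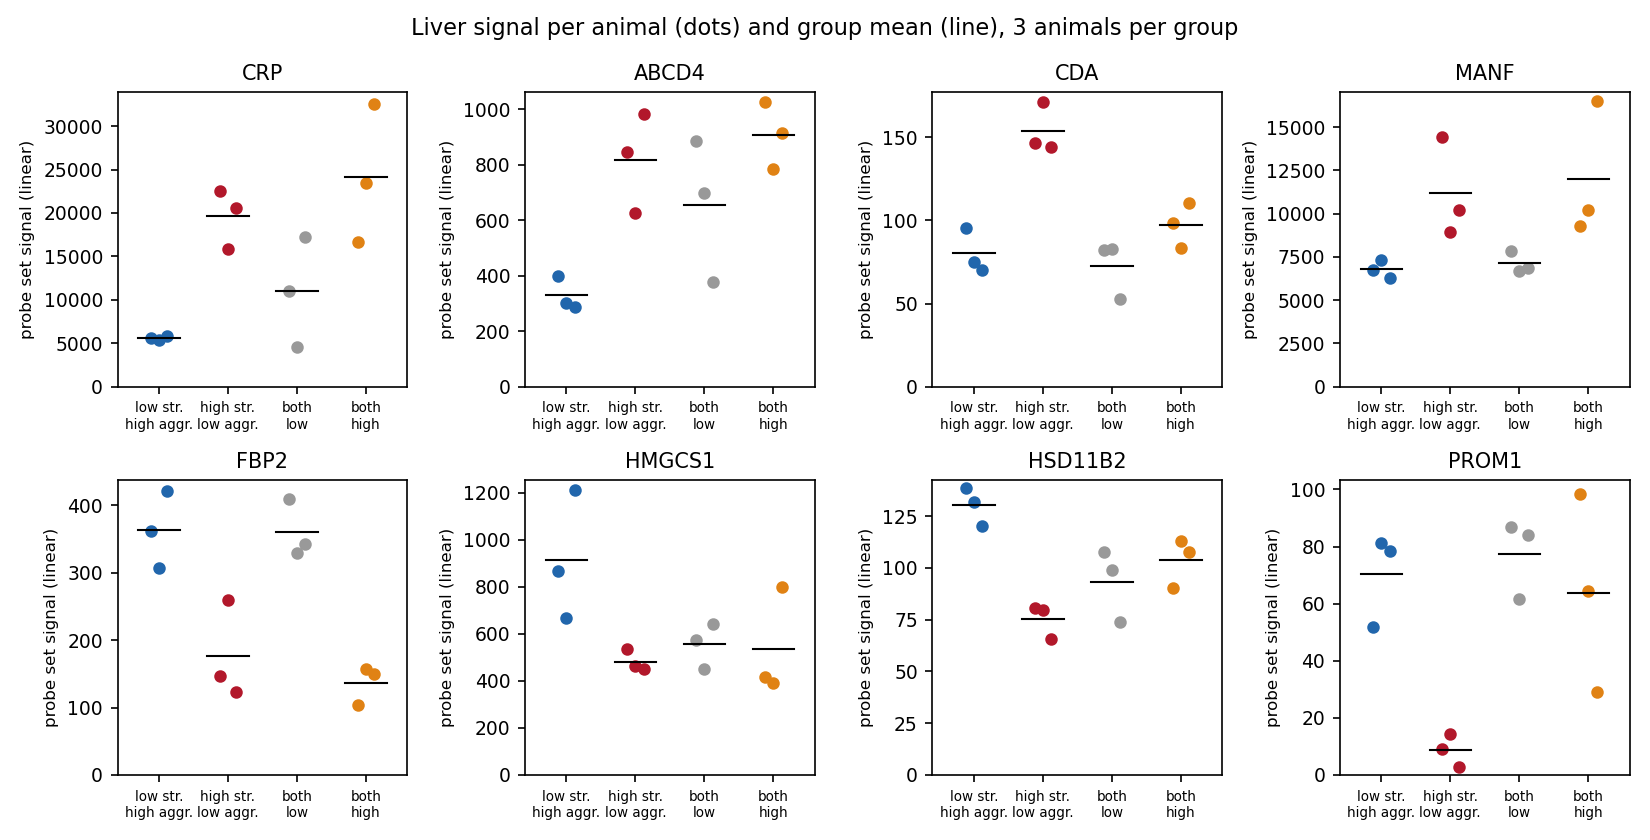
Probe set signal on a linear scale (vertical axis) for 8 genes in each of the 4 groups, abbreviated by level of stress response (str.) and aggressiveness (aggr.); dots are animals, 3 per group, and lines are group means. The high-low dots lie wholly above the low-high dots for CRP, ABCD4, CDA and MANF and wholly below for FBP2, HMGCS1, HSD11B2 and PROM1, while the 2 remaining groups fall at either end or between.

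Among genes lower in the high-low pigs, PROM1 had the smallest p of any gene. It encodes a membrane glycoprotein of progenitor and bile duct cells. Its signals were 9.26, 14.4 and 2.67 in the high-low pigs and 51.7, 81.1 and 78.6 in the low-high pigs (-1.81 ± 0.33). The low-low pigs, at 87.0, 61.6 and 83.9, and 2 of the high-high pigs resembled the low-high group, while high-high 3 read 29.0. The high-low signals are very dim, and the difference ran from -3.07 with an added constant of 1 to -0.88 with 64.

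FBP2, the muscle form of the gluconeogenic enzyme fructose-bisphosphatase, read 147, 259 and 123 in the high-low pigs and 362, 308 and 421 in the low-high pigs (-1.03 ± 0.26). The low-low pigs (410.1, 329 and 342) sat with the low-high group and the high-high pigs (103, 158 and 150.4) with the high-low group. ENO3, the muscle form of the glycolytic enzyme enolase, was dimmer at 49.7, 27.6 and 53.1 in the high-low pigs and 108, 86.4 and 143 in the low-high pigs (-1.12 ± 0.29). HSD11B2, which inactivates cortisol to cortisone, read 80.6, 79.6 and 65.6 in the high-low pigs and 139, 132 and 120.5 in the low-high pigs (-0.68 ± 0.18). Both other groups lay between, at 108, 98.9 and 73.7 for low-low and 90.5, 113 and 108 for high-high, and of those 6 pigs only low-low 3 fell within the range of either compared group. HMGCS1, the synthase that commits acetyl units to the sterol pathway, read 534, 461 and 449 in the high-low pigs and 866, 669 and 1212 in the low-high pigs (-0.87 ± 0.23), with low-high 3 the highest of the 12.

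TGFA, a ligand of the epidermal growth factor receptor, read 39.2, 48.7 and 35.1 in the high-low pigs and 67.5, 75.8 and 87.1 in the low-high pigs (-0.70 ± 0.17), and DUSP9, a phosphatase of MAP kinases, 23.7, 47.0 and 28.8 in the high-low pigs and 160.2, 123 and 139.5 in the low-high pigs (-1.69 ± 0.45). For DUSP9 even the highest high-low pig lay well under the lowest low-high pig. MYL4, a myosin light chain, read 19.96, 39.4 and 18.8 in the high-low pigs and 93.5, 63.7 and 151 in the low-high pigs (-1.46 ± 0.35), and SLMAP, a membrane protein of muscle and of the STRIPAK complex, 33.4, 30.6 and 8.73 in the high-low pigs and 62.4, 66.5 and 76.1 in the low-high pigs (-1.13 ± 0.28). PADI2, which converts arginine residues to citrulline, read 11.5, 50.3 and 35.4 in the high-low pigs and 97.4, 125 and 66.2 in the low-high pigs (-1.27 ± 0.34). These signals are dim, most under 100, and high-low animals lay at the low end in each. CILP, an extracellular matrix protein, read 43.6, 55.1 and 62.4 in the high-low pigs and 107, 70.8 and 132 in the low-high pigs (-0.75 ± 0.21), and DCHS1, a cadherin of planar polarity, 89.6, 17.5 and 34.8 in the high-low pigs and 75.0, 98.8 and 152 in the low-high pigs (-1.10 ± 0.31), the one gene of the 30 in which a high-low animal exceeded a low-high one.

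The other 3 lower genes were brighter. LYPLAL1, a lysophospholipase-like enzyme, read 187, 330.3 and 265 in the high-low pigs and 493, 998 and 607 in the low-high pigs (-1.34 ± 0.37), with low-high 2 far above the rest. CCDC28A, a coiled-coil protein, read 614, 828 and 592 in the high-low pigs and 1331, 1155 and 1261 in the low-high pigs (-0.88 ± 0.23), and the transcript named LOC102164640 read 1296, 1318 and 1825 in the high-low pigs and 2442, 2449 and 2168 in the low-high pigs (-0.68 ± 0.18). In both the low-high pigs lay closer together than the high-low pigs. The low-low means of 1345 for CCDC28A and 2475 for LOC102164640 sat with the low-high pigs.

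Gene lists gave the wider view. Of all 5810 genes, 146 (2.51%) were higher and 91 (1.57%) lower at an unadjusted p under 0.05. The groups did not overlap in 353 (6.08%) that were higher and 229 (3.94%) that were lower. Lists are described by the number of members higher or lower in group means, the median log2 fold change, and these call rules, beside the median of 0.018 over all genes. No list was tested, and the lists were written with earlier results of these data known. SPCS2, HSD17B7, EPHX1 and ABCB11, like the genes marked so below, were named after their values were seen.

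Genes of the unfolded protein response were mostly higher in the high-low pigs. Of 20 measured members 18 were higher, with a median of 0.34 (0.24 to 0.41 with any 1 animal left out). The 7 with an unadjusted p under 0.05 and the 8 without overlap were all higher, beside 2.51% and 6.08% of all genes. All 9 chaperones and cochaperones were higher (median 0.38), as were all 6 disulfide isomerases and secreted factors (median 0.31). The 5 sensors, transcription factors and feedback genes had a lower median, 0.12, and 2 were lower.

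HSPA5, the main chaperone of the endoplasmic reticulum, read 28131, 23211 and 31408 in the high-low pigs and 21201, 21027 and 20361 in the low-high pigs (0.39 ± 0.17). HYOU1, its nucleotide exchange factor, read 3519, 2352 and 2332 in the high-low pigs and 1949.6, 1693 and 1569 in the low-high pigs (0.63 ± 0.20), and CRELD2, a secreted factor of the same response, 3202, 1719.9 and 1896 in the high-low pigs and 1495, 1393 and 973 in the low-high pigs (0.78 ± 0.28). The 3 low-high pigs lay below the 3 high-low pigs for each of the 3 genes. SDF2L1, a chaperone partner named after its values were seen, read 5244, 3834 and 3474 in the high-low pigs and 3309, 2878 and 1878 in the low-high pigs (0.65 ± 0.25). Low-high 3 weighed on the sizes: without it the differences were 0.36 for HYOU1, 0.37 for CRELD2 and 0.30 for SDF2L1. With the EF1A ratio as a covariate they were 0.33, 0.23 and 0.23. The mean of the list in each animal, as centred log2 signal, was 0.35, -0.038 and 0.098 in the high-low pigs and -0.16, -0.16 and -0.23 in the low-high pigs. High-low 1 was the highest and high-low 2 the nearest to the low-high pigs. Cytosolic heat shock proteins, the chaperones outside the endoplasmic reticulum, had 7 of 12 members higher and a median of 0.021.

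Secretory pathway genes leaned the same way but less. Of 35 members 28 were higher, with a median of 0.16 and 6 at an unadjusted p under 0.05. The 9 genes of N-glycosylation had 8 higher (median 0.18), led by the sugar-nucleotide enzymes; the 13 of translocation had 11 higher (median 0.097). SEC23B, of the coat that buds vesicles from the endoplasmic reticulum, read 2222, 1425 and 1756 in the high-low pigs and 1198, 1237 and 1175 in the low-high pigs (0.55 ± 0.22), with the low-high pigs in a narrow band, and 0.37 without low-high 3. SPCS2, a signal peptidase subunit, read 66.8, 63.3 and 77.5 in the high-low pigs and 8.61, 13.6 and 72.6 in the low-high pigs (1.08 ± 0.44), where low-high 3 alone reached the high-low level (1.67 without it). The median of the list was 0.011 without low-high 3 and 0.0056 in males alone. Low-high 3 is the female of its group, so in the fit without it the term for sex rests on the other groups. Whether that moved the median was not tested. The list averages were 0.25, 0.017 and 0.082 in the high-low pigs and -0.14, -0.026 and -0.16 in the low-high pigs, without overlap and with low-high 3 close to low-high 1.

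Sterol synthesis genes were lower in the high-low pigs in their group means. Of 12 genes 11 were lower, with a median of -0.41, and 4 (HMGCS1, FDFT1, SQLE and CYP51) had an unadjusted p under 0.05 without overlap. Over all genes 1.57% were lower at that p and 3.94% were lower without overlap. FDFT1, squalene synthase, read 2679, 5499 and 3234 in the high-low pigs and 5933, 6157 and 7069 in the low-high pigs (-0.81 ± 0.24). SQLE, the epoxidase that follows it, read 944, 1351 and 1128 in the high-low pigs and 2267, 1402 and 2703 in the low-high pigs (-0.85 ± 0.27). CYP51, a demethylase of lanosterol named after its values were seen, read 2970.0, 3706 and 2041 in the high-low pigs and 3912, 3879.9 and 6372 in the low-high pigs (-0.70 ± 0.25; -0.47 without low-high 3). In FDFT1 and SQLE high-low 2 came close to the lowest low-high pig, and without high-low 1 the differences were -0.57 and -0.54. HSD17B7 was the one member that was higher (0.60 ± 0.54), with high-low 1 at 4784 and the other 5 pigs between 1054 and 2128. HSD17B7 differed by 0.15 without high-low 1 and by 1.01 without high-low 3. Over animals the list averaged -0.075, 0.092 and -0.47 in the high-low group and 0.22, 0.068 and 0.52 in the low-high group; high-low 2 exceeded low-high 2, so the averages overlap, and low-high 3 and high-low 3 lay at the far ends.

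Fatty acid and triglyceride synthesis had 14 of 17 members lower and a median of -0.42 (-0.20 without low-high 3 and -0.26 without high-low 3). ELOVL6, which elongates palmitate, was the one with an unadjusted p under 0.05, reading 13281, 9551 and 9419 in the high-low pigs and 16276, 15187 and 16146 in the low-high pigs (-0.58 ± 0.26). Its other 3 probe sets gave -0.62, -0.60 and -0.65, and 1 of those 3 was also without overlap. The desaturases FADS2 (-1.37 ± 0.74) and SCD (-0.72 ± 0.46) and the triglyceride enzyme DGAT2 (-0.98 ± 0.52), named after their values were seen, were lower in means with overlapping pigs. FADS2 read 237, 574 and 48.3 in the high-low pigs and 493, 735 and 419 in the low-high pigs, and without high-low 3 its difference was -0.43, that of SCD -0.46 and that of DGAT2 -0.47. For the list as a whole the averages were -0.29, 0.25 and -0.58 and 0.086, 0.13 and 0.45, high-low 2 lying among the low-high pigs. With the EF1A ratio as a covariate the median of the list was 0.040, so the list was not lower in that fit. Fatty acid oxidation had 17 of 22 lower but a median of -0.073. ACAA2, the thiolase of mitochondrial oxidation, read 11739, 10831 and 6349.6 in the high-low pigs and 13951, 14223 and 20500.0 in the low-high pigs (-0.78 ± 0.28), without overlap.

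Enzymes of drug and bile acid handling were lower in means with few separated animals. All 17 measured P450 and flavin oxidase enzymes were lower (median -0.41), and 0 had an unadjusted p under 0.05 or separate groups. Over all genes 1.57% were lower at that p and 3.94% were lower with separate groups. Counts of 0 among 17 genes therefore say little beside those shares. CYP1A1 read 118, 245 and 37.1 in the high-low pigs and 443, 236 and 274 in the low-high pigs (-1.39 ± 0.64) and CYP2A19 22158, 15276 and 4115 in the high-low pigs and 23514, 16184 and 27179.6 in the low-high pigs (-0.96 ± 0.44), both named after their values were seen. High-low 3 was the lowest in each, and without it the differences were -0.65 and -0.31. The list averages were -0.16, 0.14 and -0.58 in the high-low pigs and 0.16, 0.20 and 0.21 in the low-high pigs, a tight set beside a scattered one. The median of the whole list, -0.40, was -0.19 without low-high 3 and -0.29 to -0.23 without any other of the 6 animals. Conjugating enzymes had 9 of 11 lower (median -0.24; -0.11 without low-high 3 and -0.15 without high-low 3), among them EPHX1, an epoxide hydrolase, at 11110.0, 12169 and 6516 in the high-low pigs and 14142, 13962 and 14168 in the low-high pigs (-0.55 ± 0.28; -0.25 without high-low 3). All 7 bile acid genes were lower (median -0.29; -0.095 without high-low 3, and -0.53, -0.51 and -0.52 without high-low 1, high-low 2 and low-high 2); ABCB11, the export pump, read 159, 199.9 and 198 in the high-low pigs and 267, 254 and 321 in the low-high pigs (-0.56 ± 0.29).

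**Figure D3:**
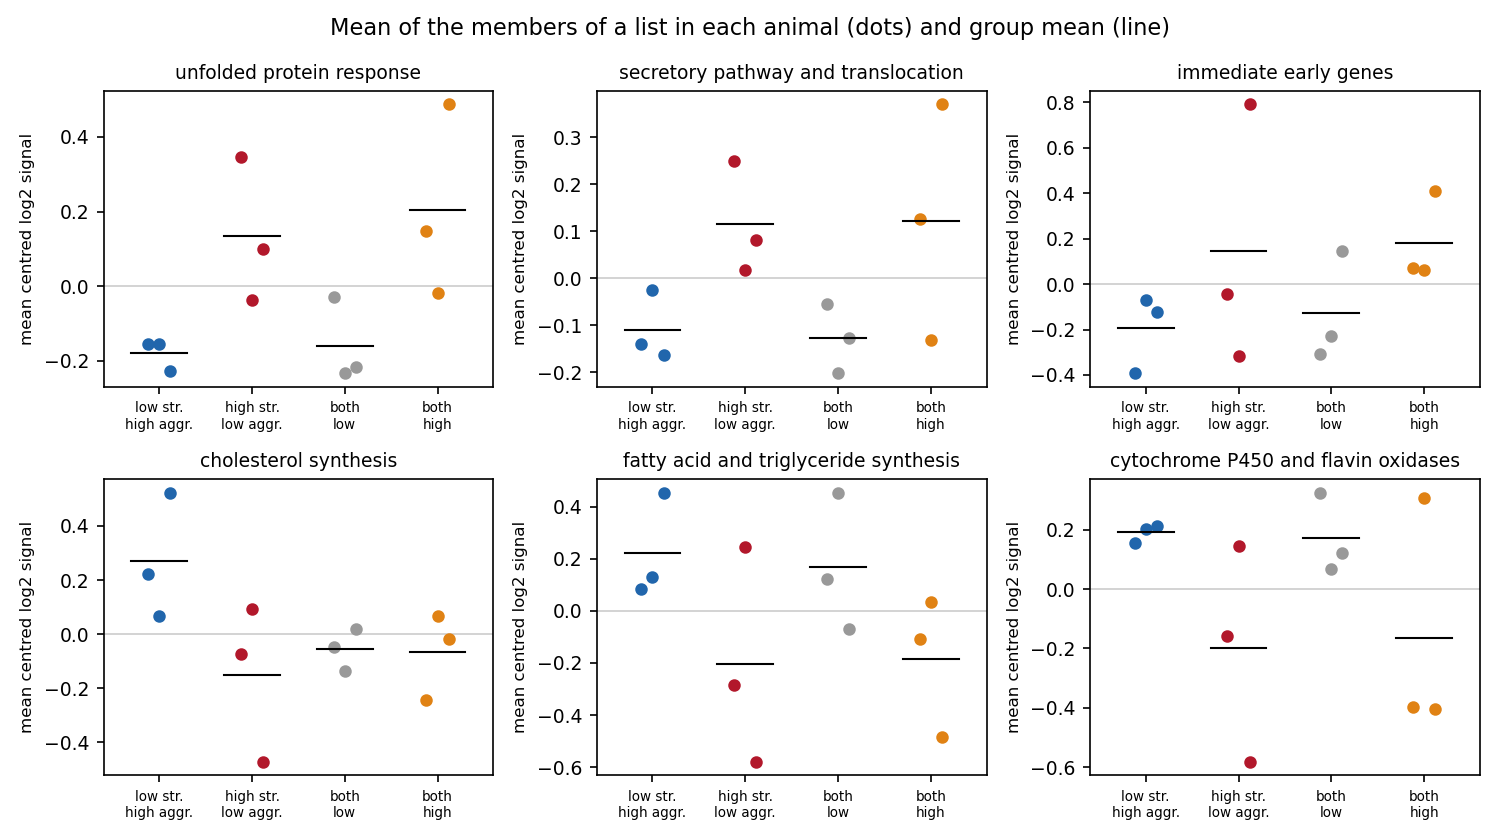
Mean over the members of 6 lists of the log2 signal centred on each gene's mean of 12 arrays (vertical axis), by group; dots are animals, 3 per group, and lines are group means. High-low and low-high pigs are separate for the unfolded protein response, the secretory pathway and the P450 enzymes, and overlap for the other 3 lists; high-low 3 stands alone for immediate early genes.

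Cortisol handling was divided by role. The 5 carriers and enzymes were lower in 4, with a median of -0.68, and the 1 that was higher, by 0.24, was also without overlap. All 3 receptor and cochaperone genes were higher, with a median of 0.37. Of 4 catecholamine receptors and enzymes 1 was higher and 3 lower, from -0.36 to 0.98 with a median of -0.15. Over all 12 members 5 were higher, with a median of -0.10. SERPINA6, the carrier of cortisol in plasma, read 2318, 1346 and 1633 in the high-low pigs and 2901, 4294 and 5611 in the low-high pigs (-1.25 ± 0.43). AKR1C1, a reductase of steroids, read 239, 148 and 156 in the high-low pigs and 326, 322 and 293 in the low-high pigs (-0.77 ± 0.27). Both were separate, as was HSD11B2. HSD11B1, which regenerates cortisol and is the form typical of liver, read 29096, 31253 and 29052 in the high-low pigs and 34497, 31535 and 36868 in the low-high pigs (-0.20 ± 0.19), a small separation (-0.12 without low-high 3). NR3C1, the glucocorticoid receptor, read 199.9, 143 and 195 in the high-low pigs and 99.6, 132 and 180.1 in the low-high pigs (0.37 ± 0.27), with overlap; it was 0.23 without high-low 3 and 0.24 without low-high 1. FKBP5, a cochaperone of the receptor and its target, read 297, 372 and 807 in the high-low pigs and 137, 364 and 153 in the low-high pigs (1.11 ± 0.54), also with overlap; without high-low 3 it was 0.68, and a second FKBP5 probe set gave -0.0020.

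Genes that glucocorticoids induce were mixed. Of 17 members 11 were higher (median 0.12), 0 had an unadjusted p under 0.05 in either direction, and without high-low 3 the median was -0.11. PCK1 and TAT were members of other lists and not among these 17, while SDS was. PCK1, the rate-limiting enzyme of gluconeogenesis, read 24155, 22288 and 25514 in the high-low pigs and 26451, 26694 and 26838 in the low-high pigs (-0.15 ± 0.15), and TAT, which breaks down tyrosine, 3802, 9162 and 10043 in the high-low pigs and 6441, 10891 and 6664 in the low-high pigs (-0.14 ± 0.37); the sign for TAT turned in males alone (0.20). A second TAT probe set gave 0.0054 with overlapping animals. SDS, which deaminates serine and was named after its values were seen, read 216, 314 and 1901 in the high-low pigs and 215, 286 and 204 in the low-high pigs (1.09 ± 0.78). High-low 3 alone carried that difference, which was 0.21 without it. Of urea cycle and sulfur amino acid genes, arginase ARG1 was higher at 17084, 17387 and 23082 in the high-low pigs and 16520.5, 15711 and 8622 in the low-high pigs (0.54 ± 0.20) and CTH at 10298, 12640.1 and 15248 in the high-low pigs and 10705, 10553 and 6196 in the low-high pigs (0.50 ± 0.20). ARG1 did not overlap and CTH did, and both were lowest in low-high 3, without which ARG1 gave 0.34.

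Immediate early genes, the first transcripts that signals induce, had 13 of 16 higher and a median of 0.43. EGR1, a transcription factor, read 2010.3, 914 and 3954 in the high-low pigs and 567, 1528 and 439 in the low-high pigs (1.40 ± 0.54), and its other 2 probe sets gave 1.89 and 1.25. The groups overlapped, since high-low 2 lay under low-high 2. KLF4 read 161, 68.5 and 187 in the high-low pigs and 27.6, 59.0 and 101 in the low-high pigs (0.99 ± 0.33), and FOS and IER2, named after their values were seen, differed by 0.68 ± 0.47 and 0.48 ± 0.21. RGS16, which ends signalling by G proteins, ran the other way at 7.55, 16.6 and 13.4 in the high-low pigs and 106, 33.1 and 21.2 in the low-high pigs (-1.10 ± 0.31; -0.66 without low-high 1). High-low 3 had the highest EGR1, KLF4, FOS and IER2 signal of the 6 pigs. Without it the differences were 0.96, 0.60, 0.14 and 0.26, and the median of the list was -0.022. The list averaged -0.044, -0.32 and 0.79 in the high-low pigs, so 1 animal set its level.

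The acute phase list did not follow CRP. Of 20 members 16 were lower, with a median of -0.083, and CRP was the one with an unadjusted p under 0.05. LBP, which binds bacterial lipopolysaccharide and was named after its values were seen, was the other member without overlap, reading 12075, 9071 and 9439.6 in the high-low pigs and 8474, 7041 and 2622 in the low-high pigs (0.91 ± 0.48); without low-high 3 it was 0.43 and without high-low 1 0.52. A second, dimmer LBP probe set gave 0.22 with overlapping animals. Of the 9 inducible acute phase proteins, CRP and LBP included, 4 were higher and 5 lower. All 6 proteins that fall in an acute phase response, ALB and APOA1 among them, were lower by small amounts, with a median of -0.077. ALB read 41598, 48522 and 52631 in the high-low pigs and 50536, 39361 and 61125 in the low-high pigs (-0.065 ± 0.20) and APOA1 53956, 53268 and 58395 in the high-low pigs and 56377, 50198 and 66150.2 in the low-high pigs (-0.053 ± 0.16), and the sign of both turned in males alone (0.18 and 0.068).

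Immune genes were mixed. Interferon-stimulated genes had 8 of 21 higher and a median of -0.044, with 0 at an unadjusted p under 0.05. Antigen presentation genes had 9 of 18 higher (median 0.0045), with SLA-DMA, a chaperone of class II loading, at -0.49 ± 0.21 and its second probe set at -0.014. Of 26 cytokine, chemokine and receptor genes 15 were higher (median 0.066; -0.037 to 0.21 with 1 animal left out). IL1R1, the interleukin 1 receptor, read 2859, 1837 and 2320.4 in the high-low pigs and 1512, 1556 and 1176 in the low-high pigs (0.71 ± 0.24; 0.47 without low-high 3), without overlap. The chemokine CXCL14 read 657, 395 and 949 in the high-low pigs and 436, 212 and 309 in the low-high pigs (1.00 ± 0.39) and the receptor subunit IL10RB 65.6, 97.9 and 176 in the high-low pigs and 52.3, 66.6 and 67.7 in the low-high pigs (0.64 ± 0.28), with overlap in both. Without high-low 3 CXCL14 differed by 0.66 and IL10RB by 0.30, and without high-low 1 IL10RB differed by 0.98. A second CXCL14 probe set gave 0.33, also with overlap. For IL1R1 a second, dimmer probe set gave 0.48 with overlapping animals.

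Antioxidant genes were balanced as a list, with 10 of 22 higher and a median of -0.036. Of the 22, 5 were without overlap and all of those were lower, beside 3.94% of all genes. PON3, a lactonase carried on lipoproteins, read 5597, 7762 and 3337 in the high-low pigs and 9146, 9535 and 12392 in the low-high pigs (-0.96 ± 0.32). GPX3, the secreted glutathione peroxidase, read 766, 843 and 797 in the high-low pigs and 1043, 1193 and 1294 in the low-high pigs (-0.54 ± 0.17), and GCLC, which limits glutathione synthesis, 1682, 1350.4 and 843 in the high-low pigs and 1816, 1846 and 2714 in the low-high pigs (-0.74 ± 0.32; -0.45 without high-low 3). GPX3 had tight groups; for GCLC the other 3 probe sets gave 0.34, 0.069 and -0.37 with overlap. Cell cycle genes had 13 of 17 higher and a median of 0.38, which was 0.20 without low-high 3 and 0.084 without high-low 1. That pig had the highest CCNB1, the mitotic cyclin, named after its values were seen: 302, 116 and 31.9 in the high-low pigs and 97.2, 5.61 and 38.9 in the low-high pigs (1.30 ± 0.73; 0.81 without high-low 1, 0.80 without low-high 2 and 2.07 without low-high 1).

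Housekeeping and energy lists mostly lay near the median of all genes. Oxidative phosphorylation had 17 of 34 higher (median -0.00063), the proteasome 17 of 29 (0.020), gluconeogenesis and glucose handling 3 of 11 (-0.029), and amino acid catabolism 11 of 19 (0.038). Energy sensing kinases had 5 of 10 higher (-0.071), iron and heme handling 2 of 9 (-0.092) and the insulin-like growth factor axis 3 of 10 (-0.16). FBP2 was the only member of these 7 lists besides ARG1 and CTH with an unadjusted p under 0.05.

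Markers of liver cell types were read as lists too, which does not measure the makeup of the samples. The 13 hepatocyte markers had a median of -0.065 and ranged from -0.21 to 0.54; APOA1 was the brightest probe set of the array on average, and only 0.0167% were brighter than ALB. Endothelial markers (6) ranged from -0.17 to 0.097. The 8 macrophage markers had a median of -0.051 but split: the scavenger receptor CD163 read 1624, 1729.6 and 2043 in the high-low pigs and 1400.4, 1169.8 and 954 in the low-high pigs (0.62 ± 0.25), while MARCO, another scavenger receptor, read 34.5, 9.63 and 58.9 in the high-low pigs and 60.8, 75.8 and 99.6 in the low-high pigs (-1.02 ± 0.35). The groups did not overlap for either gene on these probe sets, and the directions were opposite. Without low-high 3 CD163 gave 0.37, and without high-low 2 MARCO gave -0.61. A second, dimmer CD163 probe set gave 0.43 with overlapping animals. Of 7 bile duct markers 5 were higher (median 0.41), although PROM1 was lower. KRT18, a keratin that hepatocytes share, read 10857, 3772 and 6573 in the high-low pigs and 4302, 3269.8 and 2891 in the low-high pigs (0.91 ± 0.40; 0.53 without low-high 3). Stellate cell markers had 5 of 8 higher (median 0.20), neutrophil markers 5 of 6 (0.26), and T and NK cell markers 2 of 10 (-0.16). With 1 animal left out the medians ran from 0.19 to 0.54 for bile duct, 0.041 to 0.41 for stellate cell, 0.061 to 0.47 for neutrophil and -0.33 to 0.15 for T and NK cell markers. For hepatocyte markers they ran from -0.17 to 0.059 and for macrophage markers from -0.23 to 0.028, so the sign of both could turn. The part of cell makeup in the differences above was not tested.

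Pigs high for both traits against pigs low for both give the other diagonal of the design, where stress response keeps its direction and aggressiveness turns. That comparison uses none of the 6 arrays above, although the fit shares its variance and its term for sex. Over all genes 60.3% (3506 of 5810) had the same sign in both diagonals. Of the 30 leading genes 21 did: 14 of the 15 higher genes but 7 of the 15 lower ones. The difference between the diagonals, which carries aggressiveness, was not past the threshold for any probe set (0 of 15999 by limma, smallest adjusted p 0.273, with 497 at an unadjusted p under 0.05), so no gene is shown to differ between them.

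Higher genes with similar values in both diagonals were RAD54L (1.46 ± 0.39 and 1.43 ± 0.39), MANF (0.69 and 0.71), LRRC59 (0.71 and 0.71) and NANS (0.66 and 0.65). CRP gave 1.79 and 1.28 ± 0.39. CDHR4 was the one that turned, from 1.01 to -0.49 ± 0.28. Among lower genes FBP2 (-1.03 and -1.31 ± 0.26), CCDC28A (-0.88 and -0.70) and LOC102164640 (-0.68 and -0.53) held their direction. PROM1 gave -1.81 and -0.32 ± 0.33, HMGCS1 -0.87 and -0.11, HSD11B2 -0.68 and 0.14, and SLMAP -1.13 and 0.55. The leading genes were chosen on the first comparison, so larger values in the first are built into the choice. For lists the medians were 0.34 and 0.41 for the unfolded protein response, 0.16 and 0.14 for the secretory pathway, -0.41 and -0.057 for cholesterol synthesis, and 0.38 and -0.046 for the cell cycle. Interferon-stimulated genes gave -0.044 and 0.36.

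**Figure D4:**
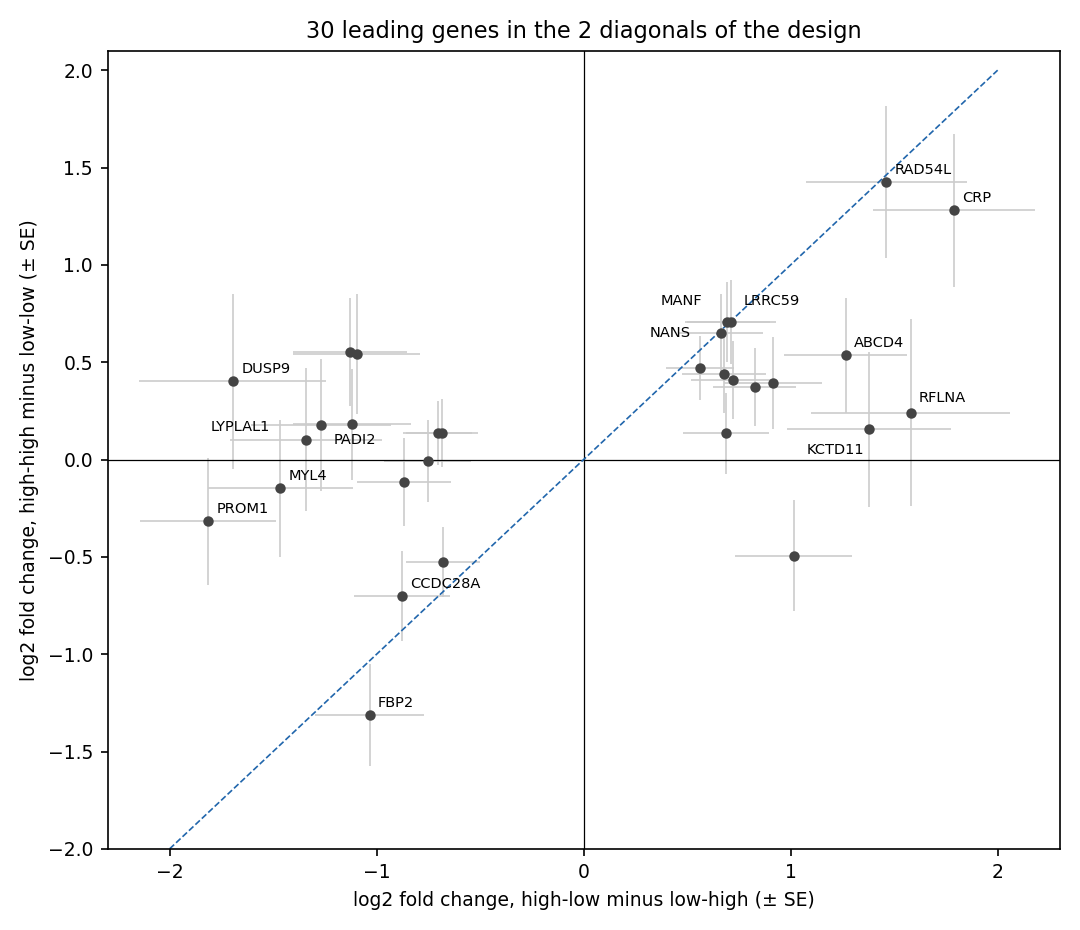
Log2 fold change of 30 leading genes in high-low against low-high (horizontal axis) and in high-high against low-low (vertical axis), with the SE of each as bars and the line of equal values dashed. The 15 genes on the right were chosen as higher and 15 on the left as lower; 14 on the right lie above zero on the vertical axis, and 7 on the left lie below it.

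Each difference is the sum of a step in stress response and a step in aggressiveness. These steps share arrays with the comparison and with each other, so they are given side by side only. For CRP, stress response at low aggressiveness (high-low minus low-low) gave 1.02 and aggressiveness at low stress response (low-low minus low-high) 0.77. By the other route, aggressiveness at high stress response (high-low minus high-high) gave -0.26 and stress response at high aggressiveness (high-high minus low-high) 2.05. For FBP2 the first pair was -1.03 and -0.0072, and the second 0.29 and -1.32. MANF gave 0.62 and 0.071, then -0.085 and 0.78. HMGCS1 gave -0.19 and -0.68 by the first route and -0.074 and -0.79 by the second. PROM1 was low in the high-low pigs against either neighbour, at -1.93 and -1.62, with 0.12 and -0.20 for the remaining steps. The interaction of both traits was past the threshold for 0 probe sets by limma (619 at an unadjusted p under 0.05). Of the 4 steps, high-low minus high-high alone had probe sets past it, 2 of 15999 (0.0125%). ZNF281, a zinc finger protein, read 106, 188 and 157 in the high-low pigs and 29.4, 22.2 and 19.9 in the high-high pigs (2.04 ± 0.20, limma adjusted p = 0.018), and PRKAG3, a regulatory subunit of the energy sensor AMPK, 105, 158 and 98.3 and 35.7, 33.7 and 23.6 (1.52 ± 0.18, limma adjusted p = 0.048). Against the low-high pigs they differed by 0.39 ± 0.20 and 0.080 ± 0.18. Both were named after their values were seen.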

How the data were processed

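Total RNA from 12 livers was labelled and hybridized, 1 array per animal. The deposited values were probe set signals on a linear intensity scale, made by the authors with GCOS 1.1.1 per the submitters' processing notes; summarisation and scaling are not given in the sources used here. The mean signal after trimming 2% was about 500.2 on every array, and values were used as deposited.

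Of 24123 probe sets, 124 controls and then the 33.3% with the lowest mean were left out, leaving 15999. Names came from the array's annotation table (10099 probe sets with 1 symbol, 198 with several, 13826 with none). A gene was represented by its brightest probe set. The model (limma 3.58.1, R 4.3.3) took log2(signal + 16) with 4 group means and sex and left 7 residual degrees of freedom; it was tested on simulated data.

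Named were the 15 genes with the smallest p in each direction, up to 3 members per list with p under 0.05, and 12 genes of cortisol action, secretion and liver identity; ZNF281, PRKAG3 and 17 further genes were chosen after their values were seen. Members and the 35 lists were chosen with earlier results of these data known. Alternatives were models without sex, with additive terms, of 6 arrays or of males only; other filters, scalings, added constants and variance estimates; the 3′ to 5′ ratios as covariates; and the omission of animals.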

Additional observations from a re-analysis of the deposited data

How the results depend on the processing

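Under each of 28 alternatives 0 probe sets passed by limma. At an unadjusted p under 0.05 the count was 1165 without a filter, and at 0.01 it was 250 of 23999 without a filter and 76 of 11999 with the lowest 50% left out, against 123 of 15999. With any animal left out, the count at 0.01 ran from 103 to 183. Of 2194 values of single genes 14 turned sign: TAT was 0.20 in males only and -0.47 to 0.20 with 1 animal left out; APOA1 was 0.068 in males only, 0.021 with the mean 3′ to 5′ ratio and 0.10 with the EF1A ratio as a covariate, and -0.13 to 0.034 with 1 animal left out; ALB was 0.18 in males only, 0.034 with quantile normalization, 0.075 and 0.18 with the same covariates, and -0.21 to 0.14 with 1 animal left out; LITAF was -0.11 as the mean over its probe sets. Of 924 list medians 37 moved. In males only the secretory pathway was at 0.0056, the growth factor axis 0.015 and the cell cycle 0.070. With the EF1A ratio as a covariate, fatty acid synthesis was at 0.040, cortisol handling 0.029, the growth factor axis -0.032, the cell cycle 0.10, ribosomal proteins 0.082 and cytokines 0.22. Energy sensing kinases were at -0.21 with the lowest 50% left out, and immediate early genes at -0.0026 without high-low 3 and high-high 3. With 1 animal left out, medians ran from 0.011 to 0.22 for the secretory pathway, -0.64 to -0.32 for cholesterol synthesis, -0.15 to 0.012 for cortisol handling, -0.11 to 0.25 for glucocorticoid-induced genes, -0.022 to 0.69 for immediate early genes, -0.16 to -0.0065 for the growth factor axis, -0.10 to 0.011 for energy sensing kinases, 0.084 to 0.45 for the cell cycle and -0.022 to 0.049 for the proteasome. The cause was not tested for list medians or single genes. No paired analysis was possible because replicate numbers follow accession order. The median SE of a difference was 0.25, so precision is limited by having 3 arrays a group.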
